A study of Homo sapiens with 35 samples.

Results

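MALAT1, NEAT1, KCNQ1OT1, TUG1, NORAD and OIP5-AS1 are abundant human long noncoding RNAs, and they are described here as a group of 6 genes of the 60665 listed in a table of read counts. They were taken by gene name, each name matched 1 row, and all 6 passed the filter on low counts that left 19275 genes for testing. Total RNA was sequenced from 35 libraries of HEK293T cells, an established line derived from human embryonic kidney. A siPOOL had been transfected into all cells at 5 nM, 72 h before: a mixture of many small interfering RNAs that share 1 target transcript, while control cells received a control siPOOL. Depleted were INTS13, which belongs to the Integrator, a nuclear complex that cuts RNA as it is being transcribed, and the proteins HDGF, ZNF655, ZMYND8, TSPYL2, ZEB1, ZNF608, ZNF609 and ZNF687. In the first set of libraries TSPYL2, ZEB1, ZNF608, ZNF609 and ZNF687 were each depleted in 2 libraries, beside 3 controls. The second set held 2 libraries each of INTS13, HDGF and ZNF655 depletion with 4 controls, and, after 24 h of glucose starvation, 4 control, 2 INTS13-depleted and 2 HDGF-depleted libraries. The third set held 2 ZMYND8-depleted libraries and 2 controls labelled for them. All come from 1 cell line with transient depletion, and since the labels do not state separate cultures, each p-value rests on the spread between these libraries only.

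MALAT1 stays in the nucleus and concentrates at nuclear speckles, bodies rich in splicing factors. NEAT1 is the scaffold of paraspeckles, nuclear bodies that do not form without it. KCNQ1OT1 is made from the paternal allele of an imprinted domain and silences genes around it in cis. TUG1 is found in nucleus and cytoplasm, NORAD is mainly cytoplasmic and binds many PUMILIO proteins, and OIP5-AS1, also called Cyrano, pairs with the microRNA miR-7 and directs its destruction. MALAT1 and the long NEAT1 transcript end without a poly(A) tail, in a genomically encoded A-rich stretch that folds into a triple helix after RNase P has cut the transcript. Libraries from total RNA with ribosomal RNA removed, as used here, do not select for a tail.

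On hg38, as the table gives it, 3 members lie on chromosome 11. MALAT1 (ENSG00000251562) spans 65497688 to 65506516 and NEAT1 (ENSG00000245532) 65422774 to 65445540, neighbours on the plus strand, while KCNQ1OT1 (ENSG00000269821) spans 2608328 to 2699994 on the minus strand, within KCNQ1. TUG1 (ENSG00000253352) is on chromosome 22 (30969245 to 30979395, plus strand) and NORAD (ENSG00000260032) on chromosome 20 (36045618 to 36051018, minus strand). OIP5-AS1 (ENSG00000247556) is on chromosome 15 (41283990 to 41309737, plus strand), and its end overlaps OIP5 on the opposite strand.

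The sequence features for which these RNAs are known were read from the longest GENCODE 29 transcript of each gene, on the GRCh38 build. The 3′ end of NEAT1-202 (22743 bases) and the stretch of MALAT1-202 (8708 bases) that ends in the same 11 letters are shown, 100 bases each, because they carry the A-rich end. The shared letters are in capitals, they occur 2 times in MALAT1-202, and the last occurrence is printed.
NEAT1, chr11:65445441-65445540, plus strand: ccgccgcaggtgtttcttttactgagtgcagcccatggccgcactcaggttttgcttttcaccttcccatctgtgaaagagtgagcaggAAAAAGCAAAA
MALAT1, chr11:65506017-65506116, plus strand: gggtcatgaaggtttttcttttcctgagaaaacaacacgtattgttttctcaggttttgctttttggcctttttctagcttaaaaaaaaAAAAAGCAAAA
The MALAT1 stretch ends at the base before AP000769.3, a gene of 57 bases on the same strand that lies inside MALAT1 and was listed at 0 counts in every library. The other genes wholly inside a member on its own strand (AP000769.5 in MALAT1, MIR612 and 3 others in NEAT1, 4 in TUG1) were also listed at 0 counts.

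NORAD is shown through its PUMILIO elements, searched as TGTANATA on the transcript strand. NORAD-201 (5339 bases, 1 exon) held 15 of them, or 2.81 per kb. Only 2 of 1567 long noncoding transcripts of at least 3000 bases held more per kb, and 65.3% of those transcripts held none. NEAT1-202 held 6, KCNQ1OT1-201 (91667 bases) 9, TUG1-217 (7469 bases) 2, OIP5-AS1-201 (8829 bases) 1 and MALAT1-202 none. In 3 places of NORAD 2 elements start 9 bases apart, and those places are printed with the elements in capitals.
NORAD, chr20:36049483-36049539, minus strand: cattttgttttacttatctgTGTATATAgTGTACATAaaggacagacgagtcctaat
NORAD, chr20:36048286-36048342, minus strand: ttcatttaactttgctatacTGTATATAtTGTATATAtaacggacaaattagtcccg
NORAD, chr20:36047650-36047706, minus strand: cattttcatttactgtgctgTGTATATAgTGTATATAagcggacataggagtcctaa
All 3 places are in the middle of the transcript, starting at its bases 1422, 2619 and 3255.

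OIP5-AS1 is shown with miR-7, whose mature sequence (RefSeq, GRCh38.p14) is printed with the seed, bases 2 to 8, in capitals. OIP5-AS1-201 held 3 matches to the seed, KCNQ1OT1-201 held 6 and the other members none. All 3 matches in OIP5-AS1 are in its last exon, exon 4 of 4. Capitals in the sites mark the bases complementary to miR-7, from the seed match and, where it has at least 8 bases, the longest further block upstream of it.
hsa-miR-7-5p: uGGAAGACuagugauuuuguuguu
OIP5-AS1, chr15:41298399-41298446, plus strand: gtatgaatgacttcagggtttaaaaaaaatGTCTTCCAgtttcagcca
OIP5-AS1, chr15:41300562-41300609, plus strand: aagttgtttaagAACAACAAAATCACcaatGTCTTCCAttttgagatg
OIP5-AS1, chr15:41305842-41305888, plus strand: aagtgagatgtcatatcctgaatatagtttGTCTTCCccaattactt
The second site has a further block of 14 complementary bases, while the others have 5 and 3. Whether any site was bound was not measured.

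The depth per library ran from 16.8 to 50.8 M counts (median 25.6 M), and a member had between 807 and 47351 counts in a library. Each siPOOL target was lower in its own depletion than in every control, at between 8.36% (HDGF) and 56.1% (ZNF608) of the control level. Of 6 embryonic kidney genes 5 had a median of at least 1 CPM (TMM-scaled counts relative to library size), PAX2 had 0.852, and the list summed to 78.2 to 125 CPM per library. Lists of 5 blood, 4 fibroblast, 4 endothelial and 3 liver genes summed to 0.974 to 3.68, 2.69 to 9.55, 0.111 to 1.0996 and 0.0693 to 0.754 CPM, with PTPRC, CD3E, DCN, CDH5 and AFP at a median of 0. In the first set, libraries numbered 1 stood apart from those numbered 2: ribosomal protein genes held 10.5 to 16.8% of their counts against 7.51 to 10.2%, and a list of 26 small nuclear and other small RNAs held 1.44 to 2.81% against 0.778 to 1.41%. All 37 mitochondrial genes were listed at 0 counts.

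Per kb of exon, MALAT1 was the highest of the 6 in the second set and in the third. The order MALAT1, NORAD, TUG1, OIP5-AS1, NEAT1, KCNQ1OT1 held in 23 of 35 libraries, and NORAD stood above MALAT1 in 10, all of the first set. MALAT1 had a median of 110 CPM per kb over all libraries (range 29.6 to 229), NORAD 69.0 (35.7 to 85.1), TUG1 17.996 (8.96 to 24.9) and OIP5-AS1 11.6 (7.18 to 14.8). NEAT1 had 5.40 (1.32 to 11.8) and KCNQ1OT1, the longest, 1.52 (0.277 to 2.66). The exon length of NEAT1 (22767 bases) is that of its long form and the table does not separate the short one, so its level per kb understates a short form. Together the 6 genes took 0.0685 to 0.180% of the counts in the first set, 0.207 to 0.356% in the second and 0.141 to 0.190% in the third. MALAT1, NEAT1 and KCNQ1OT1 carried this difference between sets, for example with 261 to 774 CPM of MALAT1 in the first set and 959.8 to 2019.6 in the second. The sets differ in treatments as well as libraries, so these are levels side by side, and all comparisons below stay within a set.

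**Figure D1:**
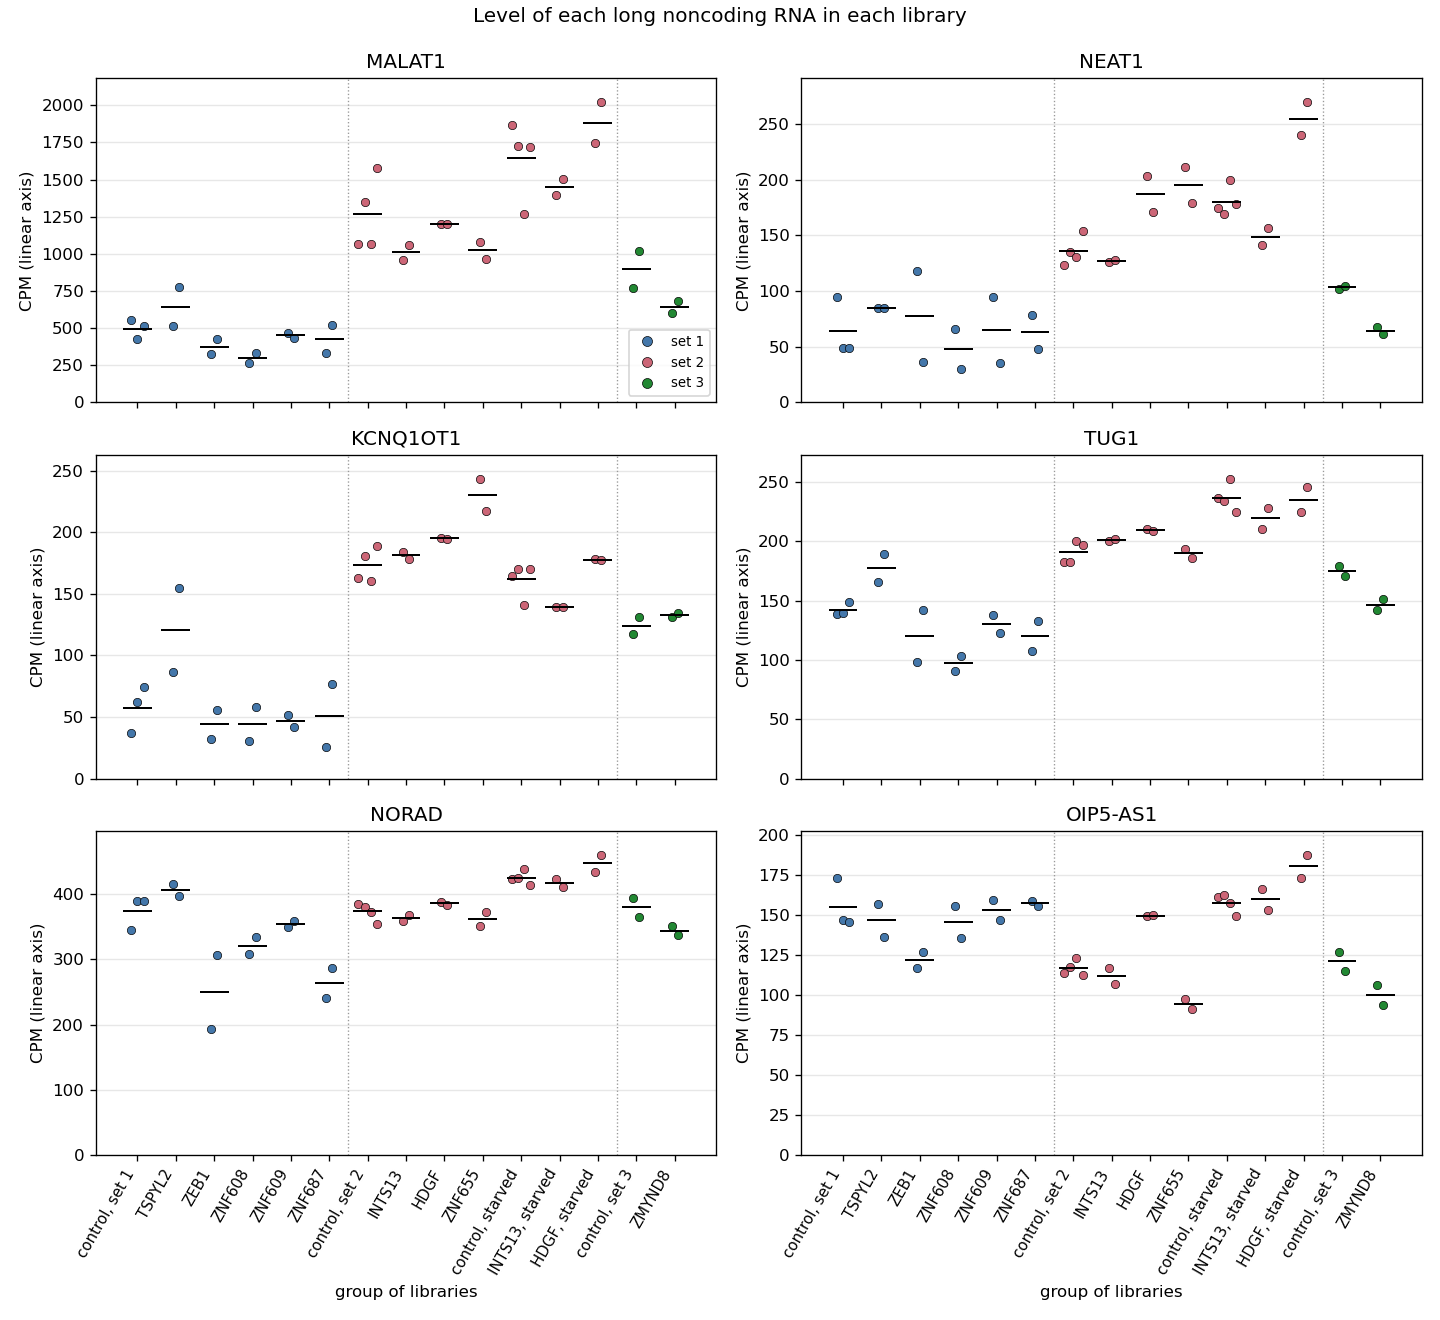
Level of each RNA in CPM on a linear axis from 0 (each point is 1 library, each bar the group mean) over the 15 groups, with dotted lines between the sets. MALAT1, NEAT1 and KCNQ1OT1 are lower in the first set than in the second, with MALAT1 at most 774 CPM in the first and at least 959.8 in the second, while OIP5-AS1 covers like ranges in both, 116 to 173 and 91.0 to 187 CPM.

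Among replicates, NEAT1 and KCNQ1OT1 were far more variable than the other members. The within-group SD on the log2 scale was 0.45 for NEAT1 and 0.39 for KCNQ1OT1, above that of 99.8% and 99.6% of the 6626 genes whose mean log2 CPM was 5 or more. It was 0.24 for MALAT1 (88.1%), 0.12 for TUG1 (42.7%), 0.12 for NORAD (44.4%) and 0.091 for OIP5-AS1 (21.9%). The spread of NEAT1 and KCNQ1OT1 came from the first set, where their SDs were 0.75 and 0.65, against 0.13 and 0.097 in the second set. The median gene had 0.20 in the first set and 0.072 in the second.

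**Figure D2:**
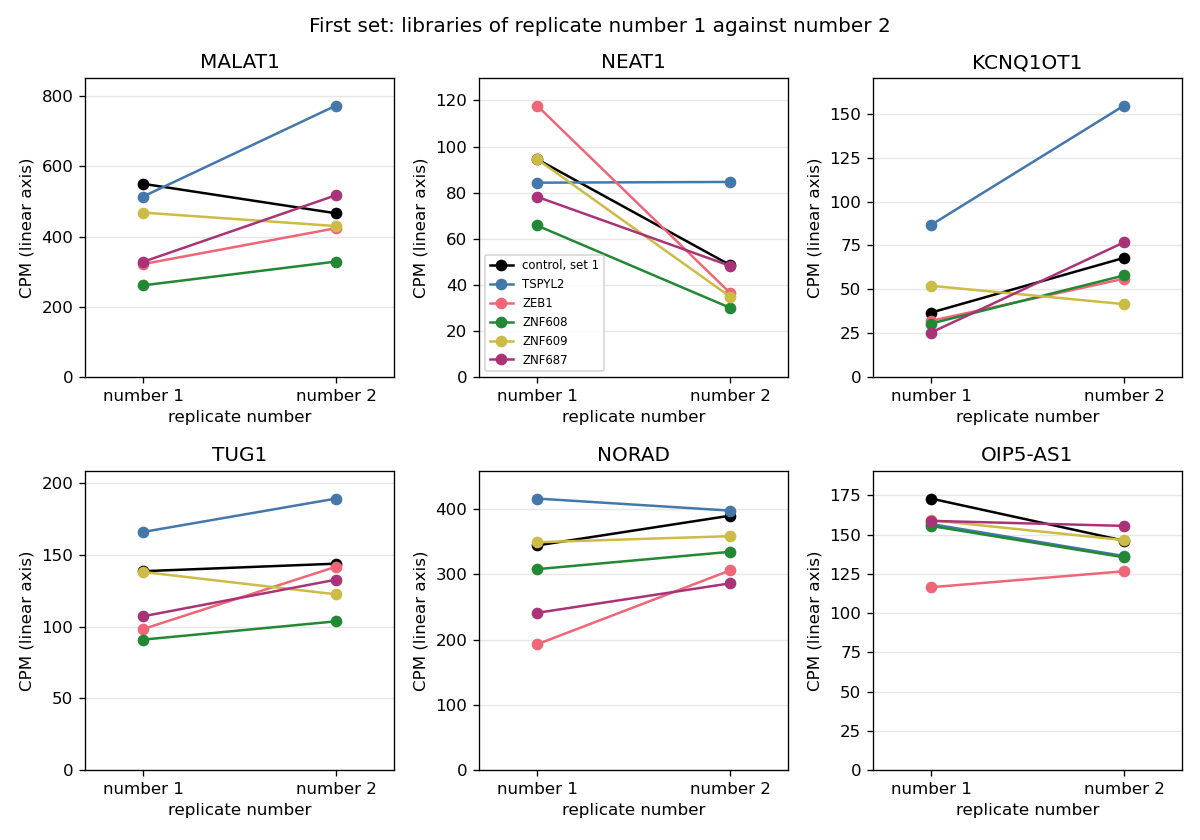
CPM on a linear axis from 0 in the first set, for libraries numbered 1 (left) and 2 (right), with 1 line per group and the 2 controls lettered 2a and 2b averaged. NEAT1 is lower on the right in 5 of 6 groups and KCNQ1OT1 is higher there in 5 of 6. OIP5-AS1 is also lower on the right in 5 of 6, with a ratio of left to right between 0.92 and 1.18. TUG1 and NORAD are higher on the right in 5 of 6 groups each, with median ratios of 0.877 and 0.902.

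In the first set NEAT1 and KCNQ1OT1 differed most of the members between the replicate numbers, by the median ratio, and in opposite directions. NEAT1 was higher in the library numbered 1 in 5 of 6 groups, with a median ratio of 2.07 (0.996 to 3.23), and in the controls it had 94.6 CPM in library 1 against 48.6 in both 2a and 2b. KCNQ1OT1 was lower in the library numbered 1 in 5 of 6 groups, with a median ratio of 0.550 (0.330 to 1.25), and in the controls it had 36.7 CPM in library 1 against 61.9 in 2a and 74.0 in 2b. OIP5-AS1 was also higher in library 1 in 5 of 6 groups, at a ratio of 0.92 to 1.18. TUG1 and NORAD were lower there in 5 of 6 groups each (median ratios 0.877 and 0.902), and MALAT1 in 4 of 6 (0.776). Between groups, the differences of number 1 from number 2 over 6626 genes correlated with a median r of 0.79. The share of all genes with such counts was not computed. The shares of ribosomal protein and small RNA counts given above move with the same number, and their part in these differences was not tested.

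Across 14 comparisons of a treated group with its control, 8 of 84 tests of a member passed an adjusted p of 0.05 in 1 fit over all libraries (edgeR's quasi-likelihood test, adjusted over all 19275 genes). Of all genes, between 0.254% (ZNF687 depletion) and 16.8% (starvation of control cells) were called per comparison. OIP5-AS1 had 5 of the 8, TUG1 2 and NORAD 1. MALAT1, NEAT1 and KCNQ1OT1 had none. OIP5-AS1 had 2026 to 7067 counts in a library, and OIP5, which overlaps its end on the opposite strand, had 448 to 1657. Whether the counting used strand is not given in the sources used here, so reads in that overlap may not be separated. In the comparisons with no member called, members at an unadjusted p under 0.05 numbered 3 for ZMYND8 depletion, 2 each for TSPYL2 and ZNF687 depletion and starvation of HDGF-depleted cells, 1 for HDGF depletion in starved cells and 0 elsewhere. Because this fit shares 1 estimate of the spread over all sets, NEAT1 and KCNQ1OT1 are tested in the other sets with the large spread of the first. In turn, members in the first set are tested with a spread lowered by the other sets. The SE of NORAD in ZEB1 depletion was 0.12, against 0.19 on the first set alone. For TUG1 in ZNF608 depletion it was 0.11 against 0.17. A fit on 1 set alone called 21 of 48 tests in the second set, 4 of 6 in the third and 0 of 30 in the first. It called 7.82 to 34.7% of all genes per comparison in the second set, 9.42% in the third and 0.00529 to 0.148% in the first. The values of this fit are given below where they differ. Both the share of members called and the share of all genes called are given for each comparison.

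**Figure D3:**
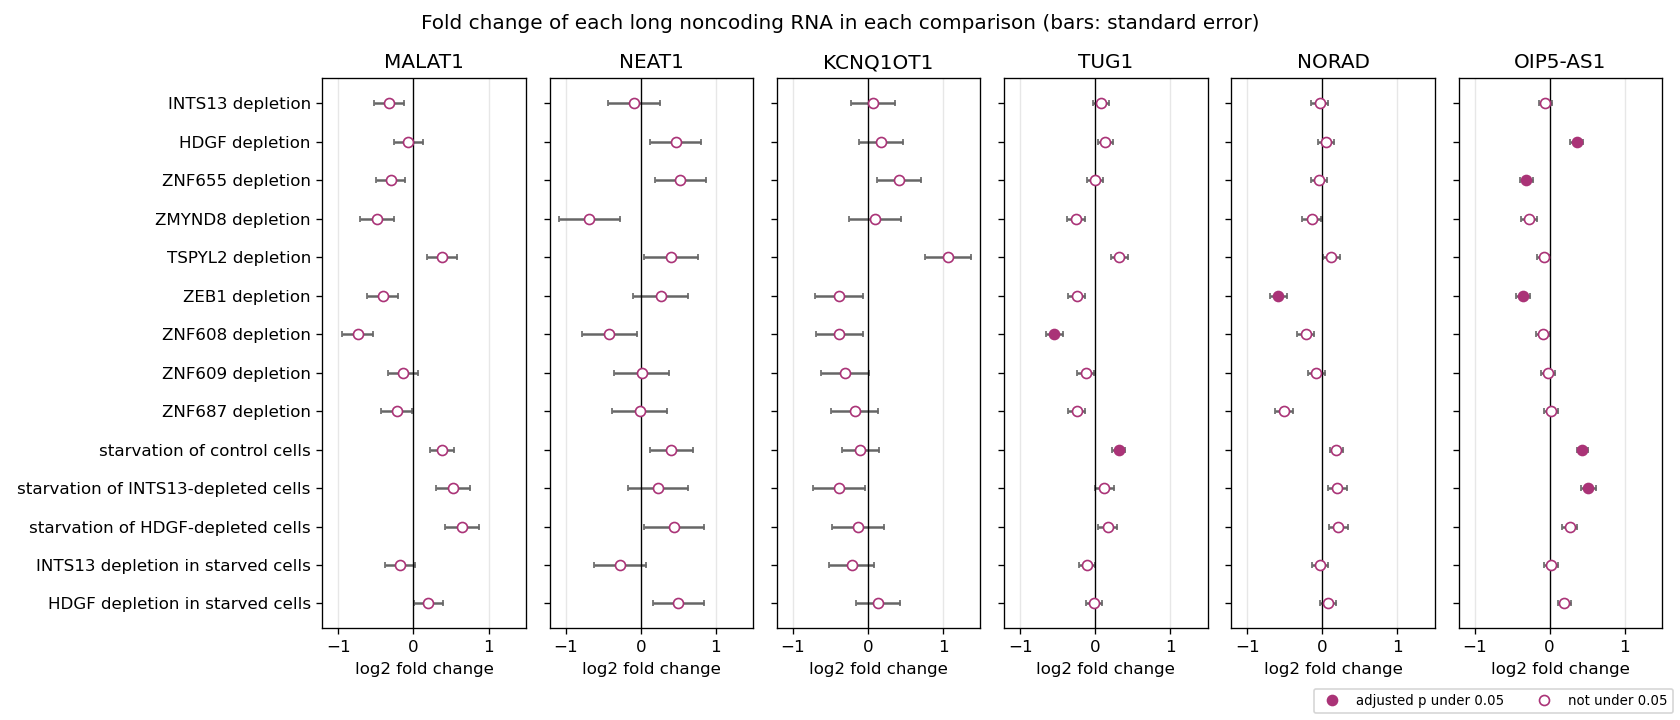
Log2 fold change of each RNA (point) with its standard error (bar) in 14 comparisons, filled where the adjusted p is under 0.05. Of the 8 filled points 5 belong to OIP5-AS1, and the bars of NEAT1 and KCNQ1OT1 are the longest.

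OIP5-AS1 and TUG1 rose in control cells starved of glucose. OIP5-AS1 had 161, 162, 157 and 149 CPM in the starved control libraries (3a, 3b, 4a, 4b) and 113, 118, 123 and 112 in those with glucose. The groups did not overlap, and the log2 fold change was 0.43 (SE 0.071, adjusted p = 1.02e-04). TUG1 had 236, 234, 253 and 225 CPM in the starved libraries against 183, 182, 200 and 197, again without overlap, with a log2 fold change of 0.31 (SE 0.087, adjusted p = 0.0132). These 2 members of 6 compare with 16.8% of all genes called. Both calls held when any of the 8 libraries was left out. In bulk RNA, a change in the share of cells and a change in RNA per cell cannot be told apart. If lettered libraries such as 3a and 3b were repeats of 1 culture, which no label states, they should count once: with their counts summed, OIP5-AS1 stayed called (adjusted p = 0.0268) and TUG1 did not (0.231).

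The other members in the same comparison had smaller or less even differences. NORAD had 424, 424, 439 and 414 CPM in starved cells and 385, 380.2, 373 and 355 with glucose. The groups did not overlap, and the log2 difference was 0.19 (SE 0.090, adjusted p = 0.165). NEAT1 had 175, 169, 199 and 178 CPM against 123, 135, 131 and 154, a log2 difference of 0.41 (SE 0.28, adjusted p = 0.366), also without overlap. MALAT1 had 1868, 1723, 1266 and 1717 CPM against 1064, 1349, 1067 and 1579.5, and its groups overlapped, since starved library 4a was below control libraries 3b and 4b. Its log2 difference was 0.38 (SE 0.16, adjusted p = 0.106). KCNQ1OT1 overlapped, with 165, 170.4, 141 and 170.5 CPM against 163, 181, 161 and 189 (log2 difference -0.10, SE 0.24, adjusted p = 0.839). So 4 of 6 members had groups that did not overlap, against 30.2% of all genes.

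In the fit on the second set alone 5 of 6 members were called in starvation of control cells, all higher, against 34.7% of all genes called there. They include NEAT1, the paraspeckle scaffold, MALAT1 and NORAD beside the 2 named above. A block for the replicate number over all libraries also called MALAT1 (adjusted p = 0.0368) and NEAT1 (adjusted p = 0.0333), with 26.5% of all genes called.

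Starvation was also applied to INTS13-depleted and HDGF-depleted cells. In INTS13-depleted cells OIP5-AS1 rose from 117 and 107 CPM to 166 and 153, a log2 fold change of 0.51 (SE 0.10, adjusted p = 0.00928). It was the 1 member called, against 1.32% of all genes, and the call was lost when any of the 4 libraries was left out (adjusted p between 0.0631 and 0.182). In HDGF-depleted cells OIP5-AS1 had 149.2 and 149.6 CPM with glucose and 173 and 187 without (log2 difference 0.27, SE 0.10, adjusted p = 0.152), and 0 of 6 members were called against 3.54% of genes. MALAT1 had 1203 and 1204 CPM in HDGF-depleted cells with glucose and 1745 and 2019.6 without, a log2 difference of 0.65 (SE 0.22, adjusted p = 0.119). In INTS13-depleted cells MALAT1 had 959.8 and 1061 CPM with glucose and 1397 and 1506 without (log2 difference 0.52, SE 0.22, adjusted p = 0.309). The groups of MALAT1 did not overlap in either background.

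The fit on the second set alone called 4 of 6 members in each depleted background, against 12.7% of all genes for INTS13-depleted and 17.0% for HDGF-depleted cells. In INTS13-depleted cells these were MALAT1, NORAD and OIP5-AS1, higher, and KCNQ1OT1, lower. KCNQ1OT1 had 184 and 179 CPM in INTS13-depleted cells with glucose and 139.1 and 138.9 without, and its log2 difference was -0.38 in either fit (SE 0.34, adjusted p = 0.716 over all libraries). In HDGF-depleted cells the 4 were MALAT1, NEAT1, NORAD and OIP5-AS1, all higher. The difference in the starvation response between depleted and control cells was tested as an interaction. Called were 0 of 6 members for INTS13 (0.0156% of genes, 3 in all, and 1103 at an unadjusted p under 0.05) and 0 of 6 for HDGF (0% of genes, and 909 at an unadjusted p under 0.05). DESeq2's Wald test called 45 and 7 genes, and neither it nor the fit on the second set alone called a member in either interaction.

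**Figure D4:**
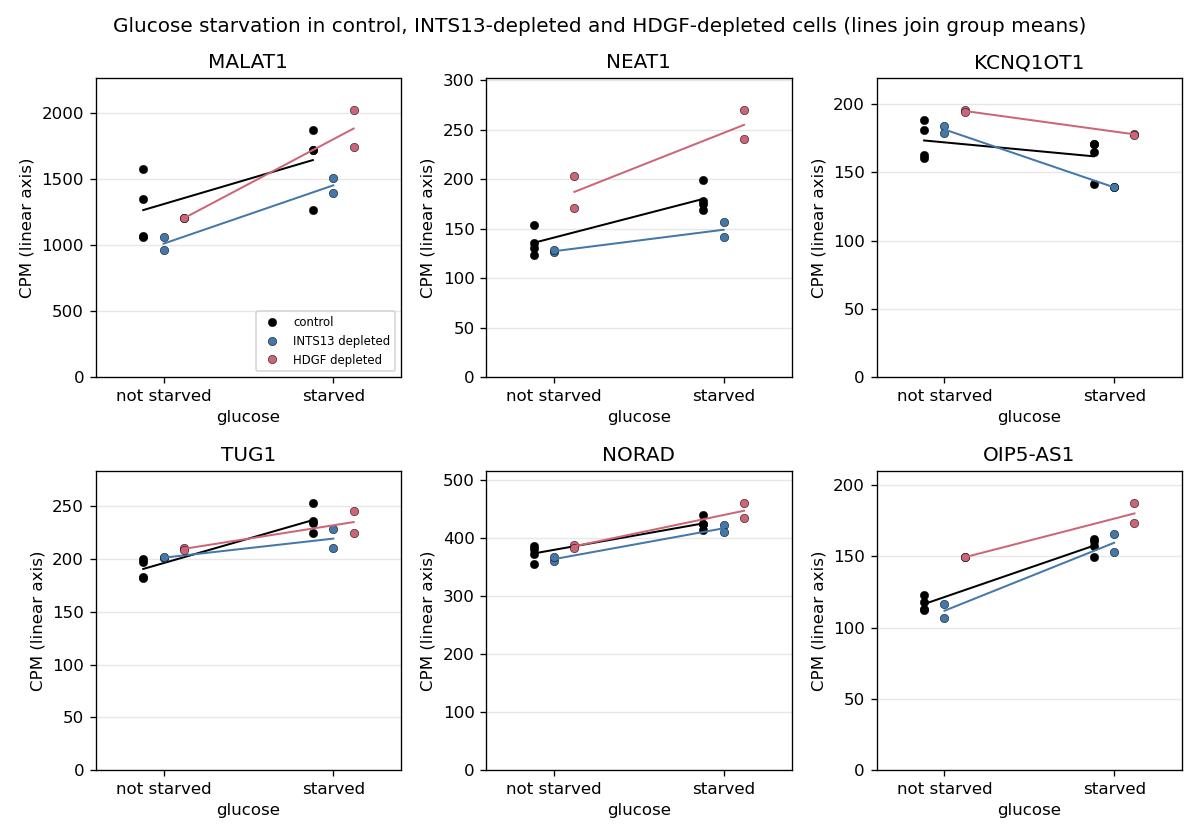
CPM on a linear axis from 0 in cells with glucose (left) and starved for 24 h (right), for control (black), INTS13-depleted (blue) and HDGF-depleted (red) cells. Points are libraries and lines join group means. OIP5-AS1 lies between 107 and 123 CPM in control and INTS13-depleted cells with glucose, and at 149.2 and 149.6 in HDGF-depleted cells, before starvation.

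INTS13 depletion called none of the 6 members, against 12.8% of all genes (30.1% in the fit on the second set alone, which also called none of the 6). MALAT1 had 959.8 and 1061 CPM against 1064, 1349, 1067 and 1579.5 in controls 3a, 3b, 4a and 4b. INTS13 library 4 was thus only just under 3a and 4a, and the log2 difference was -0.32 (SE 0.20, adjusted p = 0.323). Controls 3b and 4b also held more small RNA counts (1.51 and 1.33%) than 3a and 4a (1.09 and 0.816%). The part of this in the MALAT1 values was not tested. NEAT1 had 126 and 128 CPM against 123 to 154 in the controls, KCNQ1OT1 184 and 179 against 161 to 189, and NORAD 359.5 and 368 against 355 to 385. TUG1 had 200.6 and 202 CPM, just above its controls (182 to 200.04, log2 difference 0.08, SE 0.11, adjusted p = 0.709), and OIP5-AS1 had 117 and 107 against 112 to 123. CDKN1A, which like NEAT1 is a known p53 target, rose 6.05-fold in the same libraries (log2 2.60, SE 0.13, adjusted p = 2.83e-13), while the log2 difference of NEAT1 was -0.09 (SE 0.35). The activity of p53 was not measured, and its part in the levels of either gene was not tested. CDKN1A also rose 3.77-fold in INTS13 depletion of starved cells (adjusted p = 5.01e-10), 2.79-fold in ZEB1 depletion (7.00e-07), 1.71-fold in starvation of control cells (4.56e-05), 1.499-fold in HDGF depletion (0.0135) and 1.49-fold in ZNF608 depletion (0.0274), beside the ZNF655 and ZMYND8 depletions below. In those 5 comparisons the log2 difference of NEAT1 was -0.27, 0.27, 0.41, 0.46 and -0.42, none of them called in the fit over all libraries. The fit on the second set alone called NEAT1 higher in starvation of control cells (adjusted p = 1.13e-04) and HDGF depletion (5.88e-04), and lower in INTS13 depletion of starved cells. In ZEB1 depletion NEAT1 had 118 and 36.5 CPM in libraries 1 and 2, against 94.6 in control 1 and 48.6 in both 2a and 2b. In starved cells INTS13 depletion again called 0 of 6 members against 3.86% of genes. The fit on the second set alone called 1 there, NEAT1, with 141 and 157 CPM against 169 to 199 (log2 -0.26, SE 0.088, adjusted p = 0.0431, 16.3% of genes called).

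OIP5-AS1 rose in HDGF depletion. The depleted libraries had 149.2 and 149.6 CPM and the 4 controls 112 to 123, without overlap (log2 fold change 0.36, SE 0.086, adjusted p = 0.0122). This 1 member of 6 compares with 4.49% of genes called. The call was lost without either HDGF library (adjusted p up to 0.176), with lettered controls summed (0.11) and with no filter on low counts (0.113). NEAT1 had 204 and 171 CPM in the depleted libraries against 123 to 154 (log2 difference 0.46, SE 0.34, adjusted p = 0.582). On the second set alone NEAT1 was called (SE 0.086, adjusted p = 5.88e-04), and with OIP5-AS1 that made 2 of 6 members against 16.0% of genes. KCNQ1OT1 (195.4 and 194.5 CPM against 161 to 189) and TUG1 (211 and 209 against 182 to 200.04) lay above their controls without passing the test (adjusted p = 0.878 and 0.612). MALAT1 and NORAD overlapped their controls. In starved cells HDGF depletion called 0 of 6 members against 0.659% of genes, and the fit on the second set alone called 2, against 7.82%. These were NEAT1 (241 and 269.7 CPM against 169 to 199, log2 0.50, adjusted p = 7.78e-04) and OIP5-AS1 (173 and 187 against 149 to 162, log2 0.20, adjusted p = 0.0381).

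In ZNF655 depletion OIP5-AS1 fell. It had 97.2 and 91.0 CPM against 112 to 123 in the same 4 controls, without overlap (log2 fold change -0.31, SE 0.088, adjusted p = 0.0218), so 1 of 6 members was called against 11.5% of genes. The labels name no control for ZNF655, and against the 2 controls labelled for ZMYND8 (127 and 115 CPM) the log2 fold change was -0.36 (adjusted p = 0.0244). The call was lost without control library 4a or without either ZNF655 library (adjusted p up to 0.152), with lettered controls summed (0.0669) and with no filter on low counts (0.135). NEAT1 had 212 and 179 CPM against 123 to 154, and KCNQ1OT1 243 and 217 against 161 to 189, both without overlap. Their log2 differences were 0.53 (SE 0.34, adjusted p = 0.366) and 0.41 (SE 0.29, adjusted p = 0.424). In the fit on the second set alone both were called (adjusted p = 6.32e-05 and 1.64e-04), which made 3 of 6 members against 29.5% of genes. KCNQ1, which overlaps KCNQ1OT1 on the opposite strand, also rose in ZNF655 depletion (log2 0.92, SE 0.29, adjusted p = 0.0362). Whether the counting used strand is not given in the sources used here, so reads of the 2 genes may not be separated. KCNQ1 had 11 to 80 counts in a library and KCNQ1OT1 at least 807. Inside MALAT1, which had at least 8114 counts, the opposite-strand gene AP000769.2 had 1 to 11. These counts cannot decide whether strand was used. KCNQ1 is counted over 4420 exon bases only, so reads from the rest of that gene would not show in its count. CDKN1A rose 3.69-fold in these libraries (adjusted p = 7.97e-10).

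ZMYND8 depletion called 0 of 6 members against 0.747% of genes, and 5 of 6 had lower values. NEAT1 had 67.4 and 60.9 CPM against 102 and 105 in the 2 controls, which is 62.2% of the control level (log2 difference -0.69, SE 0.40, adjusted p = 0.66). MALAT1 had 602 and 680.0 CPM against 770.0 and 1021 (log2 difference -0.48, SE 0.22, adjusted p = 0.477). TUG1 had 142 and 151 CPM against 179 and 171, OIP5-AS1 106 and 93.5 against 127 and 115, and NORAD 350.5 and 337 against 394 and 366. None of these groups overlapped, and neither did those of KCNQ1OT1, which was higher (131.4 and 134.2 CPM against 117.4 and 131.0). With 2 libraries on each side this separation says little, and its share over all genes was not computed here. A fit on the 4 libraries of this set alone, with 2 residual degrees of freedom, called MALAT1 (adjusted p = 0.00195), NEAT1 (1.58e-06), TUG1 (0.0105) and OIP5-AS1 (0.0147), all lower, against 9.42% of genes. CDKN1A rose 1.67-fold (adjusted p = 0.0297).

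In the first set, NORAD and OIP5-AS1 fell in ZEB1 depletion. NORAD had 193 and 306 CPM in the libraries numbered 1 and 2, against 344, 389.6 and 390.02 in the controls, without overlap (log2 fold change -0.59, SE 0.12, adjusted p = 0.00447). OIP5-AS1 had 116 and 127 CPM against 173, 147 and 145 (log2 fold change -0.35, SE 0.092, adjusted p = 0.0326). These 2 of 6 members compare with 3.77% of genes. Without ZEB1 library 1 both calls were lost, and the log2 difference of NORAD became -0.29 (adjusted p = 0.313). That library had the highest share of ribosomal protein counts of all 35 (16.8%), and the part of this in the result was not tested. The numbers pair the libraries in this set: with the number as a block in the first set alone, NORAD stayed called and OIP5-AS1 did not (log2 -0.37, adjusted p = 0.083). On the first set alone without the block the adjusted p was 0.441 for NORAD and 0.515 for OIP5-AS1, and with lettered controls summed 0.0571 and 0.0819. With no filter on low counts OIP5-AS1 did not pass (0.0771).

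TUG1 fell in ZNF608 depletion. The depleted libraries had 90.9 and 104 CPM and the controls 139, 139 and 149, without overlap (log2 fold change -0.55, SE 0.11, adjusted p = 0.00638). It was the 1 member called, against 2.76% of genes, and the call was lost without ZNF608 library 1 (adjusted p = 0.141), on the first set alone (0.45), and with the number as a block there (0.0555). MALAT1 had 261 and 329 CPM against 551, 422 and 511, which is 59.7% of the control level and without overlap (log2 difference -0.74, SE 0.21, adjusted p = 0.0508). With the block over all libraries, which called 8.65% of all genes, MALAT1 (adjusted p = 0.00969) and NEAT1 (log2 -0.61, adjusted p = 0.0451) passed as well. Neither passed with the block in the first set alone (adjusted p = 0.0669 and 0.242) or with lettered controls summed (0.0602 and 0.689).

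TSPYL2 depletion called 0 of 6 members against 2.22% of genes. KCNQ1OT1 had 86.7 and 155 CPM in the depleted libraries numbered 1 and 2, against 36.7 in control 1 and 61.9 and 74.0 in controls 2a and 2b. Within each number the depleted library was the higher, and the log2 difference was 1.07 (SE 0.31, adjusted p = 0.066). With the number as a block over all libraries KCNQ1OT1 (log2 1.19, SE 0.18, adjusted p = 3.16e-04) and TUG1 (log2 0.35, SE 0.091, adjusted p = 0.0106) passed, but neither passed with the block in the first set alone. The block over all libraries called 18.3% of all genes. TUG1 had 166 and 189 CPM against 139, 139 and 149.

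The remaining depletions gave no call. In ZNF687 depletion 0 of 6 members were called against 0.254% of genes. NORAD had 241 and 286 CPM there against 344, 389.6 and 390.02, without overlap (log2 difference -0.51, SE 0.12, adjusted p = 0.0637), and passed with the block over all libraries (adjusted p = 0.00738, 1.17% of all genes called), but not with the block in the first set alone (0.319) or with lettered controls summed (0.364). In ZNF609 depletion 0 of 6 were called against 0.571% of genes, and the log2 differences lay between -0.30 (KCNQ1OT1) and 0.01 (NEAT1).

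The proteins of the bodies and pathways around these RNAs were followed as lists, whose counts are set against the share of all genes called: 12.8% in INTS13 depletion, 4.49% in HDGF, 11.5% in ZNF655 and 0.747% in ZMYND8 depletion, and 16.8% in starvation of control cells. Of 20 paraspeckle proteins, 2 fell in INTS13 depletion: TARDBP, an RNA-binding protein (log2 -0.38, SE 0.11, adjusted p = 0.025), and RBMX (log2 -0.23, adjusted p = 0.0213). The median of the list was -0.20, against 0.01 over all genes. In ZNF655 depletion 5 of 20 fell, against 11.5% of all genes called in either direction, and the median was -0.15 (0.02 over all genes), with ZNF24 at -0.89 (SE 0.090, adjusted p = 1.71e-07) and PSPC1, a core paraspeckle protein, at -0.32 (adjusted p = 0.0176). In starvation of control cells 2 rose, CIRBP, a cold-inducible RNA-binding protein (log2 0.46, SE 0.091, adjusted p = 8.14e-04), and NONO, a core paraspeckle protein (log2 0.33, adjusted p = 0.0151), and 3 fell, with FAM98A at -0.43 (adjusted p = 6.04e-05). These 5 of 20 compare with 16.8% of all genes, and the 2 of 20 in INTS13 depletion with 12.8%. HDGF and ZMYND8 depletion called 0 of 20 each. The 9 other comparisons gave 2 calls, both higher.

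Of 18 nuclear speckle proteins, SRSF1, a splicing factor that binds MALAT1, fell in ZNF655 depletion (log2 -0.42, SE 0.11, adjusted p = 0.0151), as the 1 call of 18 there (11.5% of all genes). In starvation of control cells SRSF2 (log2 -0.42, SE 0.076, adjusted p = 3.27e-04) and SRSF1 (log2 -0.26, adjusted p = 0.0457) fell and none rose, 2 of 18 against 16.8% of all genes, with a list median of -0.17 against 0.01 over all genes. INTS13, HDGF and ZMYND8 depletion called 0 of 18 each, and the 9 other comparisons gave 1 call higher and 1 lower. Of 11 tested genes of RNase P and RNase Z, which cut the MALAT1 end and its tRNA-like product, RPP25 rose in INTS13 depletion (log2 0.32, adjusted p = 0.022) and in ZNF655 depletion (log2 0.35, adjusted p = 0.0135). POP1 (log2 -0.58, SE 0.10, adjusted p = 1.9e-04) and RPP38 (log2 -0.38, adjusted p = 0.0197) fell in starvation of control cells, where the list median was -0.28. That is 1 of 11 in each of the first 2 (12.8 and 11.5% of all genes) and 2 of 11 in starvation (16.8%). No other comparison called any of them.

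Of 17 genes of nuclear RNA decay, 4 fell and none rose in starvation of control cells, against 16.8% of all genes called, with a median of -0.14. The largest were EXOSC4, an exosome subunit (log2 -0.36, adjusted p = 0.0292), and TENT4B, a noncanonical poly(A) polymerase (log2 -0.34, adjusted p = 0.00188). The exosome nuclease DIS3 fell in INTS13 depletion (log2 -0.26, adjusted p = 0.0255), EXOSC6 in HDGF depletion (log2 -0.59, adjusted p = 0.0139) and MTREX, the helicase that feeds RNA to the exosome, in ZNF655 depletion (log2 -0.23, adjusted p = 0.0403), each as 1 of 17 against 12.8, 4.49 and 11.5% of all genes. ZMYND8 depletion called none, and the 9 other comparisons gave 3 calls, all higher. Of 9 proteins that bind NORAD or OIP5-AS1, IGF2BP3 (log2 -0.54, SE 0.10, adjusted p = 5.21e-04) and RBMX fell in INTS13 depletion and RBMX fell in ZNF655 depletion (log2 -0.25, adjusted p = 0.0156). No other comparison called any of the 9.

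Of 13 genes of the imprinted domain around KCNQ1OT1, 8 were tested. CDKN1C, a cell cycle inhibitor silenced by KCNQ1OT1 on the paternal allele, was low in all these groups. It fell in HDGF depletion (1.65 against 2.50 CPM, log2 -0.60, SE 0.17, adjusted p = 0.0456) and in ZNF655 depletion (1.56 against 2.50 CPM, log2 -0.68, SE 0.17, adjusted p = 0.0108). An effect of KCNQ1OT1 on it was not tested. NAP1L4 fell in INTS13 depletion (log2 -0.36, adjusted p = 0.015). In starvation of control cells KCNQ1 (1.26 against 0.640 CPM, log2 0.95, SE 0.24, adjusted p = 0.00796) and SLC22A18 (2.80 against 1.63 CPM, log2 0.77, SE 0.21, adjusted p = 0.0125) rose, also at low levels. ZMYND8 depletion called none, and the 9 other comparisons gave 2 calls, both lower. Of 14 tested genomic neighbours of the members, FRMD8, near NEAT1 and MALAT1, fell in HDGF depletion (log2 -0.53, SE 0.12, adjusted p = 0.00928), NDUFAF1, near OIP5-AS1, in ZNF655 depletion (log2 -0.32, adjusted p = 0.047), and ZNRD2 in starvation (log2 -0.58, SE 0.094, adjusted p = 9.24e-05). No other comparison called any of the 14.

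Other long noncoding RNAs, 18 of a list of 19 tested, were followed in the same way. THAP9-AS1 fell in INTS13 depletion (log2 -0.50, adjusted p = 0.017), as 1 of 18. In ZNF655 depletion MIR17HG, the host of a microRNA cluster (log2 -0.42, adjusted p = 0.0467), and CRNDE (log2 -0.38, adjusted p = 0.0475) fell and 1, JPX, rose, so 3 of 18 were called against 11.5% of all genes. In starvation of control cells MIR22HG (log2 -1.01, SE 0.24, adjusted p = 0.00474) and CYTOR (log2 -0.79, SE 0.18, adjusted p = 0.0037) fell, while JPX rose, again 3 of 18 but against 16.8% of all genes. In TSPYL2 depletion FTX (log2 0.72, adjusted p = 0.00566), JPX (log2 0.41, adjusted p = 0.0219) and HCG18 (log2 0.41, adjusted p = 0.0237) rose, 3 of 18 against 2.22% of all genes. HDGF and ZMYND8 depletion called none. The 8 other comparisons gave 3 calls higher and 1 lower.

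The genes whose level followed each member most closely were sought by Pearson's r of log2 CPM over the 35 libraries, each centred on its set, among 11509 genes whose mean log2 CPM was 2 or more. The libraries share controls, depth and composition, so r is a description. For MALAT1 they were GPATCH2L (r = 0.86), MCM3AP-AS1 (0.82) and ZFP62 (0.81), and for NEAT1 LINC00894 (0.86), BMS1P1 (0.84) and FUT8 (0.83). For KCNQ1OT1 AL355488.1 (0.92), LINC00472 (0.91) and STARD9 (0.91) led, but over the 22 libraries outside the first set the r of AL355488.1 was 0.37. TUG1 was closest to MDM4 (0.90), VPS13B (0.85) and AC060780.1 (0.85). NORAD was closest to PURA (0.92), TMED8 (0.88, and 0.29 outside the first set) and SPTLC2 (0.85). OIP5-AS1 was closest to CLIC4 (0.87, and 0.94 outside the first set), ZNF606 (0.85) and FADS1 (0.84).

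Between members, r over the 22 libraries outside the first set was 0.89 for NORAD and OIP5-AS1, 0.83 for TUG1 and NORAD and 0.82 for TUG1 and OIP5-AS1. MALAT1 had 0.70 with TUG1, 0.70 with NORAD and 0.72 with OIP5-AS1, and NEAT1 0.63, 0.58 and 0.50 with the same genes. KCNQ1OT1 ran the other way, at -0.49 with TUG1, -0.59 with NORAD and -0.58 with OIP5-AS1. The 22 libraries include the starved groups, so the starvation differences given above enter these r. Over all 35 libraries r was 0.48 for NORAD and OIP5-AS1, 0.72 for TUG1 and NORAD and 0.44 for TUG1 and OIP5-AS1. MALAT1 then had 0.81 with TUG1, 0.58 with NORAD and 0.53 with OIP5-AS1, and NEAT1 0.25, -0.07 and 0.32. KCNQ1OT1 had 0.58 with TUG1, 0.47 with NORAD and -0.22 with OIP5-AS1 over all 35 libraries. The sign thus differed from that outside the first set for KCNQ1OT1 with TUG1 and NORAD, and for NEAT1 with NORAD.

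The promoters held for members were searched for the E-box CACGTG, a palindrome bound by MYC, USF and MITF-family factors, a motif chosen after the values were seen. The RefSeq table (GRCh38.p14) holds promoters, 250 bases before to 50 after a start, for 4 members, and CACGTG was in those of TUG1, NORAD and OIP5-AS1 and not in the 2 of MALAT1. It was in 7.26% of 35116 promoters. The surrounding bases are printed with the E-box in capitals.
TUG1, chr22:30969158-30969223, plus strand: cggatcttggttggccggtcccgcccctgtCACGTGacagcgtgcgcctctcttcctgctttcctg
NORAD, chr20:36051063-36051128, minus strand: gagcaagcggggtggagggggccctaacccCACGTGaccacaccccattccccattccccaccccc
OIP5-AS1, chr15:41283740-41283785, plus strand: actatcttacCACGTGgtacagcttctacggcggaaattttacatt
Binding there was not measured.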

How the data were processed

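The authors deposited 1 table of whole-number read counts per gene on hg38, made before duplicate removal as its name says. FastQC, cutadapt and STAR are named per the submitters' processing notes, while what counted the reads, with which annotation release and whether by strand, is not given in the sources used here. All sample columns were matched to labels. Control libraries of the first set are numbered by their descriptions (1, 2a, 2b), whose numbers differ from their titles. By description, 2a and 2b had a chi-square per degree of freedom of 5.08, against 102 and 120 for library 1 with either. In second-set controls with glucose it was 10.3 for 3a with 3b, 11.1 for 4a with 4b, 11.3 for 3a with 4a and 5.24 for 3b with 4b. In starved controls the same pairs had 3.56, 9.92, 7.60 and 3.78. None was counted as a duplicate, so the main fit takes 2a and 2b as separate libraries.

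Genes were filtered with filterByExpr and scaled by TMM. In R 4.3.3, edgeR 4.0.16 fitted 15 group means over 35 libraries (20 residual degrees of freedom) with the quasi-likelihood test, two-sided, and p-values were Benjamini-Hochberg adjusted over 19275 genes. All adjusted p-values are from edgeR unless DESeq2 (1.42.0) is named. Correlations used log2 CPM with a prior count of 2. Alternatives were other scalings, DESeq2, no filter, a block for the replicate number, each set alone, lettered controls summed, other controls for ZNF655 and leaving out each library. Same-numbered libraries deviated together in the first set (15 of 15 pairs of groups with a correlation over 0.1, median 0.79) and in 8 of 21 pairs of the second. The members, lists and comparisons were chosen with earlier results of these data known. Genes named were the members, the siPOOL targets, CDKN1A, the 3 genes most like each member, and up to 2 called genes per list and comparison with the largest change in INTS13, HDGF, ZNF655 and ZMYND8 depletion and starvation of control cells. FTX, JPX, HCG18, KCNQ1 beside KCNQ1OT1, NONO and overlapping genes were named beyond this rule after their values were seen.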

Additional observations from a re-analysis of the deposited data

How the results depend on the processing

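The 8 calls kept their direction under every alternative run, and no called difference of a member changed sign. Counts of members called differed from those reported (0 for most depletions, 1 for HDGF, ZNF655 and ZNF608 depletion and for starvation of INTS13-depleted cells, 2 for ZEB1 depletion and starvation of control cells) as follows.

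The share of all genes called under the same setting is given in brackets. On 1 set alone they were 2 for HDGF (16.0%), 3 for ZNF655 (29.5%), 4 for ZMYND8 (9.42%), 0 for ZEB1 (0.148%) and 0 for ZNF608 (0.0529%). They were 5 for starvation of control cells (34.7%), 4 of INTS13-depleted (12.7%) and 4 of HDGF-depleted cells (17.0%). In starved cells they were 1 for INTS13 (16.3%) and 2 for HDGF depletion (7.82%). With the replicate block over all libraries they were 2 for ZNF655 (20.9%), 2 for TSPYL2 (18.3%), 3 for ZNF608 (8.65%), 1 for ZNF687 (1.17%), 4 for starvation of control (26.5%) and 2 of HDGF-depleted cells (9.37%). With the replicate block in the first set alone they were 1 for ZEB1 (1.7%) and 0 for ZNF608 (1.76%), and the block changed no other call of the first set. With lettered controls summed they were 0 for HDGF (2.06%), 0 for ZNF655 (6.04%), 0 for ZEB1 (1.07%) and 1 for starvation of control cells (4.41%). With no filter on low counts they were 2 for ZNF655 (4.75%), 2 for ZMYND8 (0.374%), 1 for TSPYL2 (1.53%), 2 for ZNF608 (0.979%) and 1 for ZNF687 (0.547%). They were 4 for starvation of control (6.79%), 2 of INTS13-depleted (0.733%) and 1 of HDGF-depleted cells (1.29%), and 1 for HDGF depletion in starved cells (0.392%). Without that filter the calls of OIP5-AS1 in HDGF, ZNF655 and ZEB1 depletion were lost (adjusted p = 0.113, 0.135 and 0.0771), while NEAT1 in HDGF, NEAT1 and KCNQ1OT1 in ZNF655 and MALAT1 in ZEB1 depletion were gained. DESeq2 size factors gave 2 for ZNF608 (2.87%) and 1 for ZNF687 (0.291%), and DESeq2's Wald test 1 for TSPYL2 (4.45%), 2 for ZNF608 (4.81%) and 1 for ZNF687 (1.06%). The cause of these differences was not tested.

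Leaving out 1 library at a time gave 0 to 1 for HDGF, ZNF655, TSPYL2 and ZNF687, 0 to 3 for ZEB1, 0 to 2 for ZNF608, 2 to 3 for starvation of control cells and 0 to 0 of INTS13-depleted cells. These ranges include fits that leave 1 library in a depletion, so that the spread of that group is not seen. The 3 for ZEB1 came from ZEB1 library 1 alone, the library with the highest share of ribosomal protein counts (16.8%). TUG1 had 98.3 CPM in it, against 139, 139 and 149 in the controls. In TSPYL2 library 2 KCNQ1OT1 had 155 CPM, against 36.7, 61.9 and 74.0 in the controls. Without control library 2a MALAT1 passed in ZNF608 depletion (adjusted p = 0.044), and without control library 1 NORAD passed in ZNF687 depletion (adjusted p = 0.032). Over all genes, the number called moved by more than 1.5 times in 14 of 14 comparisons on 1 set alone (ratios 0.00234 to 11.5) and with the block over all libraries (1.58 to 8.25), in 13 of 14 with lettered controls summed (0.129 to 0.674), in 8 of 14 with DESeq2's Wald test (1.09 to 4.18), in 3 of 14 with no filter (0.733 to 4.45) and in 5 of 5 with the block in the first set alone (0.117 to 0.626). It moved in 0 of 14 with DESeq2 size factors or upper-quartile scaling. Members had at least 807 counts in each library, and whether depth limited their calls was not tested.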
